A study of Mus musculus with 8 samples.

Results

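The interferon regulatory factors (IRFs) are transcription factors that share an amino-terminal DNA-binding domain and read the interferon-stimulated response element, a short GAAA-rich sequence in promoters of antiviral genes. Some of them, IRF3 and IRF7, are phosphorylated in the cytosol when nucleic acid sensors fire and then switch on the interferon genes. IRF9 joins STAT2 in the complex that answers the type I interferon receptor, IRF1 is induced by interferon-gamma, and IRF4, IRF5 and IRF8 act mainly in immune cells. The genes described here are Irf1, Irf2, Irf3, Irf4, Irf5, Irf7, Irf8 and Irf9, 8 of the 30445 rows of the deposited gene table, chosen by gene name.

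The data are poly(A) RNA sequencing of hearts of C57 mice, collected 8 weeks after transverse aortic constriction (TAC), an operation that narrows the aortic arch and loads the left ventricle with pressure. There were 4 libraries labelled Mertk knockdown and 4 wildtype libraries; both groups had the operation, so unoperated hearts were not analysed here. MERTK is a receptor with which macrophages take up dying cells, and the title of the study ties it to the type I interferon response. Neither the means of lowering Mertk nor the cells concerned are given in the labels, which also leave unstated whether each library is a different mouse. The p-values therefore measure only how these libraries spread, and that spread may be technical.

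Total counts were 63378755 to 68762911 in the labelled knockdown libraries and 59287621 to 71571173 in wildtype. Mertk, the targeted gene, stood at 12.8, 12.3, 10.6 and 11.8 CPM (the count scaled to the library total) in the labelled knockdown libraries and at 11.02, 10.39, 10.5 and 12.29 CPM in wildtype. It was thus not lower where its label says so (log2 fold change 0.10, 95% interval −0.14 to 0.34, edgeR adjusted p = 0.766), and every direction given here is that of the labels. Hepatocyte and atrial markers split the libraries unevenly. The 18 hepatocyte markers summed to 282 to 359 CPM in the 4 labelled knockdown libraries, against 353 CPM in wildtype replicate 1 and 52.1 to 58.2 CPM in wildtype replicates 2 to 4. The 8 markers of atrial tissue were highest in labelled knockdown replicate 4 (1964 CPM) and wildtype replicate 2 (2336 CPM), against 200 to 1085 CPM elsewhere. The largest step between ranked libraries, where each split was made, was 4.85-fold for the hepatocyte sum and only 1.81-fold for the atrial sum. Whether the atrial sum, which includes Nppa, follows the amount of atrial tissue was not tested. The 10 cardiomyocyte markers summed to 53980 to 60890 CPM in the labelled knockdown and 40620 to 53060 CPM in wildtype, so the tissue label holds.

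All 8 genes passed the filter on low counts. Irf7 fell in the labelled knockdown libraries, the other 7 did not pass the test over all genes, and 0 rose; at an unadjusted edgeR p under 0.05 the numbers were 5 lower and 0 higher, where 6.32% of all tested genes were lower and 6.11% higher at that threshold. Among all 17787 genes tested, 0.647% were called, 0.371% lower and 0.275% higher. The groups did not overlap for Irf7, Irf9 and Irf5, all lower in the labelled knockdown, where 3.9% of all tested genes were lower without overlap and 4.18% higher. The log2 fold change was below 0 for 7 of the 8 genes and its median was −0.73, against −0.0007 over all tested genes. DESeq2, which calls 1.62% of its tested genes lower, called Irf7, Irf9 and Irf5.

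**Figure D1:**
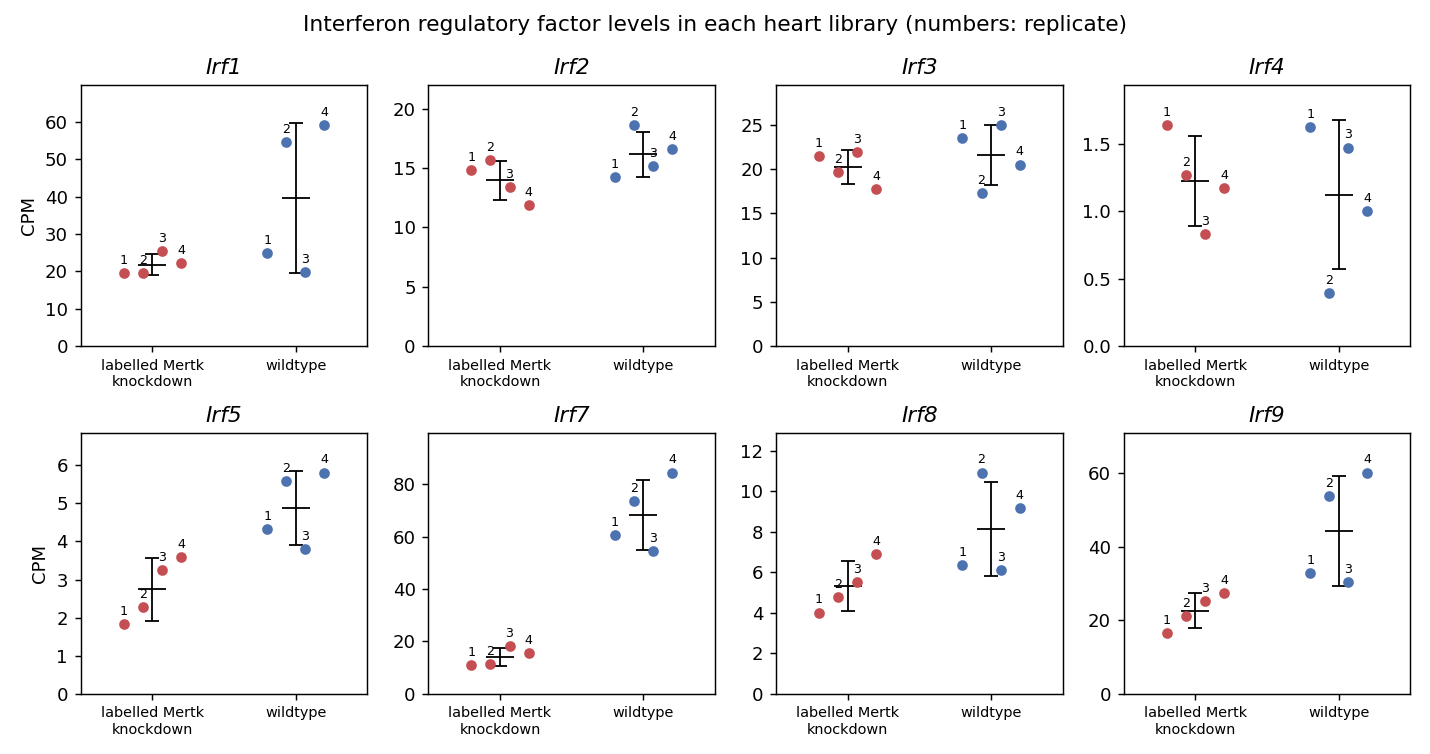
CPM of each gene in the 4 labelled knockdown libraries (red, left) and the 4 wildtype libraries (blue, right), on linear axes from 0; numbers are replicates, bars are mean ± SD. Irf7 lies at 10.96 to 18.38 CPM in the labelled knockdown and 54.5 to 84.5 CPM in wildtype, while Irf2, Irf3 and Irf4 overlap.

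The bases upstream of the RefSeq starts were searched for 2 elements of interferon signalling. The sequences are from RefSeq on build GRCm38.p6, and all 8 genes matched, with 11 windows of 250 bases. The first element is the response element read by IRFs, searched on both strands as GAAA, any 2 bases and GAAA again, and present in 2.98% of 32536 promoter windows of the same length. The second is the gamma-activated sequence (GAS) of the interferon-gamma pathway, searched as TTCNNNGAA, which is its own reverse complement and is present in 7.04% of those windows. Shown are Irf7, the gene that fell, and the 3 genes with a match, each 5′ to 3′ on the gene's strand, cut where the deposited gene begins, with matches in capitals:

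Irf7, minus strand, chr7:141266482-141266674: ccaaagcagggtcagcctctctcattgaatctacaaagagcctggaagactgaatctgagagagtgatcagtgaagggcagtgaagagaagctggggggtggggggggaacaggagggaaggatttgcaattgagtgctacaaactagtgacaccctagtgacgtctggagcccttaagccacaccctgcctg
Irf1, plus strand, chr11:53769764-53770013: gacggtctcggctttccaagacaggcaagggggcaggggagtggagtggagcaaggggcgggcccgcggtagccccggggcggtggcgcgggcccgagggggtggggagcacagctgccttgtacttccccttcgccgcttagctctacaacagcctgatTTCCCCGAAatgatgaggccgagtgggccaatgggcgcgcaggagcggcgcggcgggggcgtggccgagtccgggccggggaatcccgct
Irf8, plus strand, chr8:120736108-120736357: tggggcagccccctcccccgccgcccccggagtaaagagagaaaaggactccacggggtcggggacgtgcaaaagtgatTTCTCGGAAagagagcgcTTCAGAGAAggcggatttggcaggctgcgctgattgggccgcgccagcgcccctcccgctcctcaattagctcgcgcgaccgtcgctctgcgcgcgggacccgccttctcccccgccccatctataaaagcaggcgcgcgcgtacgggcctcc
Irf2, plus strand, chr8:46739495-46739731: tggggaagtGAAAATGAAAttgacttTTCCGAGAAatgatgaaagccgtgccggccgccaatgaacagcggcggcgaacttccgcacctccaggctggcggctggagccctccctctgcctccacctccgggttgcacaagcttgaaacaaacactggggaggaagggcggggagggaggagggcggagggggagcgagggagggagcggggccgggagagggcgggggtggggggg

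The GAS-like match of Irf1 lies 90 to 82 bases upstream of the RefSeq start, and Irf8 has matches at 171 to 163 and 153 to 145 bases. Irf2 has the one IRF-like match, at 241 to 232 bases, and a GAS-like match at 224 to 216 bases, and the matches do not overlap. No match was found in the windows of Irf3, Irf4, Irf5, Irf7 and Irf9, nor in the second windows of Irf1 and Irf8. The windows of Irf9 and these second windows lie wholly inside the deposited genes. The bases upstream of the deposited Irf9 start were therefore not searched. These letters describe the windows only.

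Irf7 encodes the factor that drives the bulk of interferon-alpha transcription and is itself induced by interferon. The gene (ENSMUSG00000025498) is on chromosome 7 at 141262706 to 141266481, minus strand, in mm10, with 10 exons in its principal GENCODE M21 transcript. Its level was 10.96, 11.28, 18.38 and 15.5 CPM in the labelled knockdown libraries, replicates 1 to 4, and 60.8, 73.5, 54.5 and 84.5 CPM in wildtype. The highest labelled knockdown library thus lay far below the lowest wildtype one, and wildtype replicates 2 and 4 were the highest. The means were 14.03 ± 3.56 CPM in the labelled knockdown and 68.3 ± 13.4 CPM in wildtype (SD, n = 4 each), a 4.87-fold lower level (log2 fold change −2.28, SE 0.20, 95% interval −2.73 to −1.84, edgeR adjusted p = 0.00125). By p-value the gene ranked 8 of 17787. The principal transcripts of the other genes have 8 to 10 exons.

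Irf7 stayed called in each of 23 alternative settings, with log2 fold changes of −2.44 to −1.95. Leaving out any 1 of the 8 libraries gave edgeR adjusted p of 0.00137 to 0.00723. Among the 5 libraries with hepatocyte transcripts, 4 labelled knockdown and 1 wildtype, the log2 fold change was −2.11 (edgeR adjusted p = 0.0310); the single wildtype library there is taken to vary as much as the labelled knockdown ones, and 0.116% of all genes were called lower.

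IRF3 works with IRF7 in interferon induction, is made constitutively and is controlled by phosphorylation. Irf3 (chromosome 7, 44997648 to 45002848, plus strand) had 21.5, 19.7, 22.0 and 17.8 CPM in the labelled knockdown libraries and 23.6, 17.3, 25.0 and 20.5 CPM in wildtype. The labelled knockdown range lay inside that of wildtype. The log2 fold change was −0.09 (95% interval −0.38 to 0.19, edgeR adjusted p = 0.831), an interval that leaves out a change of the size seen for Irf7. In FPKM, the deposited values per transcript length on which genes can be set side by side, the ratio of Irf7 to Irf3 was 0.463, 0.521, 0.760 and 0.795 in the labelled knockdown and 2.36, 3.89, 1.99 and 3.76 in wildtype. Irf7 transcripts were thus fewer than Irf3 transcripts per length in every labelled knockdown library and more numerous in every wildtype one.

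IRF9 is the DNA-binding subunit that brings STAT2 to interferon-stimulated promoters. Irf9 (chromosome 14, 55603571 to 55610030, plus strand) had 16.5, 21.3, 25.1 and 27.5 CPM in the labelled knockdown libraries and 32.8, 53.8, 30.5 and 60.2 CPM in wildtype. All 4 labelled knockdown libraries lay below all 4 wildtype ones, though the gap was narrow, and wildtype replicates 2 and 4 stood well above replicates 1 and 3. The log2 fold change was −0.97 (SE 0.25, edgeR adjusted p = 0.150), which did not pass. DESeq2 gave −0.97 with an adjusted p of 0.00316. Without 1 library the edgeR adjusted p ran from 0.0877 to 0.289.

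Stat2, which encodes a partner of IRF9 in that complex, had 20.9, 22.3, 26.1 and 29.5 CPM in the labelled knockdown libraries and 26.2, 84.8, 31.9 and 86.3 CPM in wildtype. Wildtype replicates 2 and 4 were far above the other 6 libraries, the groups overlapped, and the gene did not pass (log2 fold change −1.21, edgeR adjusted p = 0.286). The FPKM ratio of Irf9 to Stat2 was 1.002 ± 0.0882 in the labelled knockdown and 0.974 ± 0.311 in wildtype (SD, n = 4 each), with overlap. By library it was 0.871, 1.05, 1.06 and 1.03 in the labelled knockdown and 1.38, 0.697, 1.05 and 0.767 in wildtype. Wildtype replicates 2 and 4 thus lay below every labelled knockdown library, and wildtype replicate 1 above them all.

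IRF1 activates MHC class I, immunoproteasome and guanylate-binding protein genes after interferon-gamma. Irf1 (chromosome 11, 53770014 to 53777323, plus strand) had 19.7, 19.6, 25.5 and 22.2 CPM in the labelled knockdown libraries and 24.8, 54.7, 19.8 and 59.3 CPM in wildtype. Only wildtype replicates 2 and 4 were high; wildtype replicates 1 and 3 lay within the labelled knockdown range. The coefficient of variation was 12.8% in the labelled knockdown and 50.9% in wildtype, and the log2 fold change of −0.87 (SE 0.35) did not pass (edgeR adjusted p = 0.364).

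IRF2 competes with IRF1 for the same sites and restrains it on many promoters. Irf2 (chromosome 8, 46739732 to 46847458, plus strand) had 14.8, 15.7, 13.4 and 11.9 CPM in the labelled knockdown libraries and 14.3, 18.7, 15.2 and 16.6 CPM in wildtype. The groups overlapped (log2 fold change −0.21, 95% interval −0.49 to 0.06, edgeR adjusted p = 0.537). The FPKM ratio of Irf1 to Irf2 was 2.48, 2.33, 3.54 and 3.48 in the labelled knockdown and 3.25, 5.47, 2.43 and 6.66 in wildtype, again with only wildtype replicates 2 and 4 apart.

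IRF5 carries signals from endosomal Toll-like receptors through MYD88 to inflammatory cytokine genes in myeloid cells. Irf5 (chromosome 6, 29526625 to 29541871, plus strand) had 1.84, 2.28, 3.24 and 3.60 CPM in the labelled knockdown libraries and 4.34, 5.60, 3.80 and 5.81 CPM in wildtype. The groups did not overlap, by a margin of labelled knockdown replicate 4 below wildtype replicate 3. The log2 fold change of −0.83 (SE 0.25) did not pass (edgeR adjusted p = 0.193), but had an adjusted p of 0.0487 in DESeq2. Its counts were low, 122 to 245 in the labelled knockdown and 219 to 428 in wildtype. The FPKM ratio of Irf7 to Irf5 was 3.32 to 4.61 in the labelled knockdown and 10.1 to 11.2 in wildtype; in wildtype, where both genes were highest in replicates 2 and 4, this ratio spread little.

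IRF8 is needed for monocyte and dendritic cell development and pairs with the myeloid factor encoded by Spi1. Irf8 (chromosome 8, 120736358 to 120756694, plus strand) had 4.01, 4.79, 5.52 and 6.91 CPM in the labelled knockdown libraries and 6.37, 10.9, 6.11 and 9.15 CPM in wildtype. Labelled knockdown replicate 4 lay above wildtype replicates 1 and 3, and the log2 fold change of −0.62 (SE 0.23) did not pass (edgeR adjusted p = 0.303). Spi1 had a log2 fold change of −0.39 (edgeR adjusted p = 0.657).

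IRF4, which drives plasma cell and T cell programmes, had the lowest FPKM of the 8. Irf4 (chromosome 13, 30749226 to 30766976, plus strand) had 109, 84, 53 and 80 counts in the labelled knockdown libraries and 103, 26, 85 and 74 counts in wildtype, or 0.831 to 1.64 CPM and 0.392 to 1.62 CPM. Its lowest library was wildtype replicate 2, in which Irf8 was highest. The log2 fold change of 0.13 had a 95% interval of −0.81 to 1.07 (edgeR adjusted p = 0.940), which includes a 2-fold rise. Summed B and plasma cell markers were 23.8 to 43.1 CPM in the labelled knockdown and 24.3 to 32.4 CPM in wildtype, with Cd79a and Ms4a1 at 0 in some libraries.

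**Figure D2:**
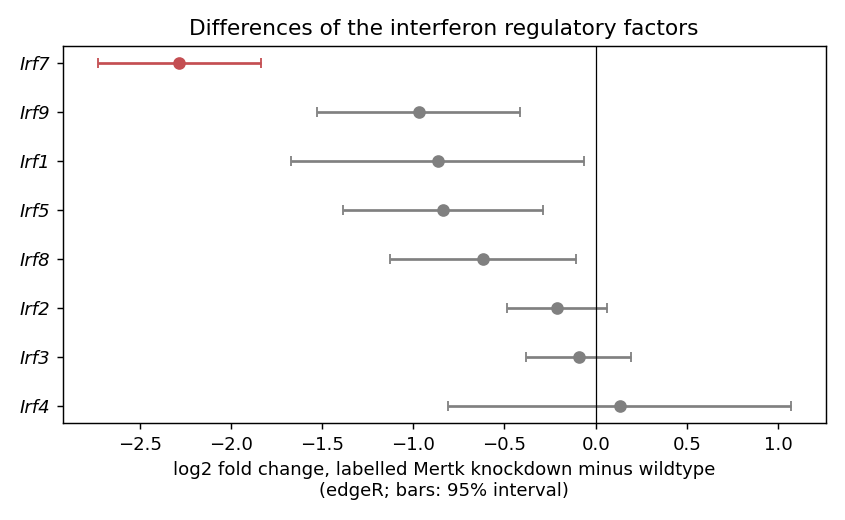
Log2 fold change (labelled knockdown minus wildtype, x axis) of each gene with its 95% interval from edgeR; the gene called over all genes is red. The interval of Irf7 (−2.73 to −1.84) lies apart from those of the other 7 genes, and those of Irf2, Irf3 and Irf4 include 0.

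Ordered by FPKM within the labelled knockdown, Irf3 came first at 5.36 ± 0.494, then Irf1 at 5.01 ± 0.745, Irf9 at 3.85 ± 0.900 and Irf7 at 3.40 ± 0.938 (SD, n = 4 each). These neighbours overlapped in their library values. Irf2 (1.72 ± 0.176) lay below Irf7 without overlap, Irf5 (0.860 ± 0.278) below Irf2 without overlap, Irf8 (0.687 ± 0.174) overlapped Irf5, and Irf4 (0.227 ± 0.0577) lay below all. In wildtype Irf7 headed the order at 16.4 ± 3.93, followed by Irf1 at 9.15 ± 4.97, Irf9 at 7.497 ± 2.82 and Irf3 at 5.62 ± 0.686, with overlap between each and the next. Then came Irf2 (1.97 ± 0.306), Irf5 (1.52 ± 0.372), Irf8 (1.05 ± 0.338) and Irf4 (0.203 ± 0.0964), where Irf2, Irf5 and Irf8 overlapped in turn.

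As a share of the summed FPKM of the 8 genes, Irf7 made up 13.9% to 18.5% in the labelled knockdown libraries and 35.9% to 40.4% in wildtype. Irf3 made up 21.5% to 30.2% in the labelled knockdown and 9.22% to 19.7% in wildtype. The share of Irf9 was 18.1% ± 2.65 in the labelled knockdown and 16.9% ± 1.83 in wildtype (SD, n = 4 each). The shares of one library sum to a fixed total, so a lower share of Irf7 raises the others.

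**Figure D3:**
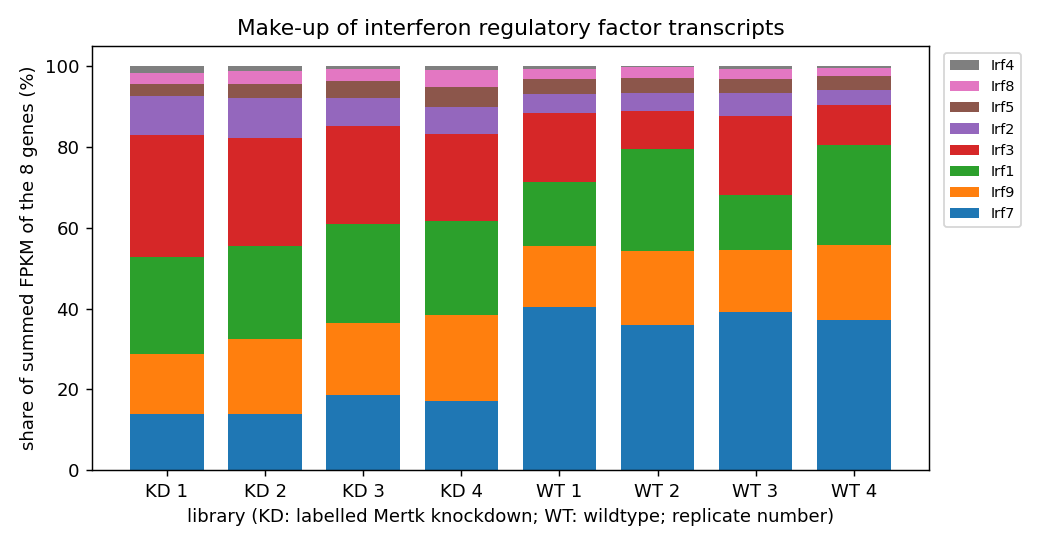
Share of each gene in the summed FPKM of the 8 genes (y axis, percent), by library; KD stands for labelled knockdown and WT for wildtype. The Irf7 share is 13.9% to 18.5% in the KD libraries and 35.9% to 40.4% in the WT libraries.

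Within each group the same libraries tended to be high. Wildtype replicates 2 and 4 were the highest of their group for 6 of the 8 genes, Irf3 and Irf4 excepted, as they were for 24.7% of all tested genes. Labelled knockdown replicates 3 and 4 were the highest of theirs for 5 of the 8 (Irf1, Irf5, Irf7, Irf8 and Irf9), against 24.7% of all tested genes. Wildtype replicates 2 and 4 also had the highest wildtype sums of macrophage, monocyte, dendritic cell, neutrophil, fibroblast and atrial markers. The dendritic cell sums were 109.9, 125.8, 99.3 and 111 CPM in wildtype replicates 1 to 4. They include Bst2, also listed as interferon-stimulated, at 18.1, 31.2, 20.1 and 32.1 CPM. Replicates 1 and 4 differed less in the dendritic cell sum than in Bst2, so that order rests on Bst2. The B cell, T cell, endothelial, cardiomyocyte, hepatocyte and adipocyte sums had another order. Fibroblast markers summed to 2416 and 1881 CPM in wildtype replicates 2 and 4, against 1348 and 1471 CPM in wildtype replicates 1 and 3. In the labelled knockdown they were highest in replicates 3 and 4 (1852 and 1842 CPM). The 15 macrophage markers summed to 454 CPM in wildtype replicate 2 and 476 CPM in wildtype replicate 4. They summed to 311 to 316 CPM in wildtype replicates 1 and 3, and to 263 to 318 CPM in the labelled knockdown. All 15 had a log2 fold change below 0 (median −0.49), with 0 called by edgeR, 7 lower at an unadjusted p under 0.05 (6.32% of all tested genes) and 1 called by DESeq2, and none was at 0 in any library.

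With the mean log2 CPM of the macrophage markers as a covariate, Irf7 had a log2 fold change of −1.95 (edgeR adjusted p = 0.00374). With the same covariate Irf9 had −0.38, Irf5 −0.47, Irf8 −0.13 and Irf1 0.10, and none of these passed. Among the 5 libraries with hepatocyte transcripts the log2 fold change was −0.53 for Irf9, −0.66 for Irf5, −0.26 for Irf8 and −0.18 for Irf1, and none passed there either. In bulk tissue, fewer cells of a type and less RNA per cell cannot be told apart. Neutrophil markers summed to 2.21 to 4.89 CPM in the labelled knockdown and 5.14 to 9.48 CPM in wildtype, with 6 of the 8 markers at 0 in some library. Of 6 tested, 5 were below 0, and 0 were called by edgeR and 1 by DESeq2. At an unadjusted edgeR p under 0.05, 3 were lower, as were 6.32% of all tested genes. The part of neutrophils in the levels of the IRF genes was not tested. Cardiomyocyte marker sums were higher in the labelled knockdown without overlap, with 0 of 10 genes called by edgeR and 1 by DESeq2. At the same unadjusted p, 3 of the 10 were higher, as were 6.11% of all tested genes.

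The genes with the profile most like Irf7 over the 8 libraries were Ifit3, Ifit3b and Usp18, by root mean square difference of centred log2 CPM (0.21, 0.27 and 0.31, where the spread of Irf7 itself was 1.181). Ifit3 and Ifit3b encode antiviral RNA-binding proteins, are near-identical copies and may share reads, and Usp18 restrains interferon receptor signalling. For Irf9 (spread 0.59) they were Eif2ak2, the kinase that halts translation on double-stranded RNA, Uba7, the activating enzyme of ISG15, and Slfn2, at 0.14 to 0.15. For Irf5 (spread 0.54) they were Tcap, a sarcomere protein, the class I gene H2-Q4 and Lgals3bp, at 0.15 each. Ifit3 fell with 10.9, 10.0, 16.5 and 17.6 CPM in the labelled knockdown libraries and 46.8, 90.4, 54.6 and 96.7 CPM in wildtype (log2 fold change −2.39, edgeR adjusted p = 0.0130). Its highest libraries, wildtype replicates 2 and 4 and labelled knockdown replicates 3 and 4, were those of Irf7. It was picked by its likeness to Irf7 over these libraries, so this is no separate result.

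Upstream of the IRF proteins, their kinases, adaptors and regulators did not pass the edgeR test. Of 20 such genes 0 were called by edgeR, with 2 lower and 1 higher at an unadjusted p under 0.05 and 1 lower by DESeq2. At that unadjusted p, 6.32% of all tested genes were lower and 6.11% higher. The median log2 fold change of the 20 was −0.06, or 0.001 without labelled knockdown replicate 4. Tbk1, the kinase that phosphorylates IRF3 and IRF7, had −0.17 (edgeR adjusted p = 0.567) and its relative Ikbke −0.19 (edgeR adjusted p = 0.827). The lowest p-values belonged to Irak1, a kinase of the MYD88 pathway, at 64.2 ± 2.88 CPM in the labelled knockdown and 51.6 ± 4.89 CPM in wildtype (log2 fold change 0.31, edgeR adjusted p = 0.186), and to Trim21, which marks IRF proteins for degradation, at −1.02 (edgeR adjusted p = 0.271). Trim21 was the gene called by DESeq2, and had −0.02 among the 5 libraries with hepatocyte transcripts, where Irak1 had 0.15.

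The interferon genes themselves were at the edge of detection. Of 17 listed, 3 had a row and 0 passed the low count filter. Ifng, the interferon-gamma gene, had 12 counts over the 4 labelled knockdown libraries and 4 over the wildtype ones, and these came from labelled knockdown replicates 1 and 4 and wildtype replicate 1. Ifnz had 12 counts in the labelled knockdown and 9 in wildtype, and Ifna2 had 3 and 0. A gene without counts could still be present at up to 0.0419 to 0.0506 CPM, the level of 3 counts, depending on the library (counting error only).

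The gene lists share members, Usp18, Stat2 and Tap2 among them. Among 18 genes of interferon receptors, JAK kinases, STATs and their feedback, Usp18 fell and 0 rose by edgeR, and 1 was lower and 0 higher by DESeq2. At an unadjusted edgeR p under 0.05, 5 were lower and 3 higher, against 6.32% and 6.11% of all tested genes. The median log2 fold change of the 18 was 0.04. Usp18 had 4.21 ± 1.36 CPM in the labelled knockdown and 14.7 ± 4.85 CPM in wildtype (SD, n = 4 each; log2 fold change −1.81, edgeR adjusted p = 0.0330), and its call was lost without any 1 labelled knockdown library or without wildtype replicate 2 or 4 (edgeR adjusted p of 0.0585 to 0.107). Among the 5 libraries with hepatocyte transcripts 0 of the 18 passed in edgeR.

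There were 41 tested type I interferon-stimulated genes, the targets of the IRF9 complex and of IRF7. In edgeR 9 fell and 0 rose, where 0.371% of all tested genes fell and 0.275% rose. At an unadjusted edgeR p under 0.05, 38 were lower and 0 higher (6.32% and 6.11% of all tested genes). DESeq2 called 26 lower, against 1.62% of its tested genes. All 41 had a log2 fold change below 0 (median −1.05), where 50.1% of all tested genes did. The groups did not overlap for 24, all lower in the labelled knockdown, as for 3.9% of all tested genes. The lowest p-values were those of Ifit3b (log2 fold change −2.61), the RNA-sensing protein gene Oasl1 (−2.17), the viperin gene Rsad2 (−0.88) and Ifit3. Without 1 library the number that fell was 4 without labelled knockdown replicate 1 or 3, 5 without labelled knockdown replicate 2 or 4 or wildtype replicate 4, and 16 without wildtype replicate 1. Among the 5 libraries with hepatocyte transcripts 1 fell (Ifit3b, edgeR adjusted p = 0.00155) and the median was −0.46; among the 6 libraries low in atrial transcripts 2 fell.

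DESeq2 called 18 of 31 tested genes described as targets of IRF1 or IRF8 lower, against 1.62% of its tested genes. The median log2 fold change of the 31 was −1.35. At an unadjusted edgeR p under 0.05, 25 were lower and 1 higher (6.32% and 6.11% of all tested genes). With adjustment 1 fell in edgeR and 0 rose, where 0.371% of all tested genes fell and 0.275% rose. The gene that fell was Psmb8, an immunoproteasome subunit, with 8.22, 8.93, 10.98 and 13.9 CPM in the labelled knockdown libraries and 23.2, 28.4, 23.7 and 31.6 CPM in wildtype (log2 fold change −1.35, SE 0.18, edgeR adjusted p = 0.0127). Leaving out labelled knockdown replicate 4 added B2m and leaving out wildtype replicate 1 added Gbp6, both chosen here after their values were seen. Among the 5 libraries with hepatocyte transcripts 0 fell in edgeR, the median was −0.60 and Psmb8 had −1.13 (edgeR adjusted p = 0.187). Of the 6 genes described as IRF2 targets 0 were called by edgeR or DESeq2. At an unadjusted edgeR p under 0.05, 2 were lower, Tap2 (−0.65) and Erap1 (−0.37), as were 6.32% of all tested genes. The median of the 6 was −0.35. That median was −0.21 without wildtype replicate 2 and −0.06 among the 5 libraries with hepatocyte transcripts, where Tap2 had −0.15 and Erap1 −0.10.

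The guanylate-binding protein gene Gbp2, chosen after its values were seen, had 18.8, 19.4, 17.3 and 21.6 CPM in the labelled knockdown libraries and 22.6, 112, 23.2 and 107 CPM in wildtype. Wildtype replicates 2 and 4 were far above the rest, and replicates 1 and 3 just above the labelled knockdown. Its log2 fold change of −1.78 did not pass (edgeR adjusted p = 0.279). For Irf7 and Ifit3b, in contrast, wildtype replicates 1 and 3 were also well above every labelled knockdown library.

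Of 14 tested partners and cofactors of the IRF proteins 0 were called by edgeR, and the median log2 fold change was −0.16. At an unadjusted edgeR p under 0.05, 4 were lower and 1 higher, against 6.32% and 6.11% of all tested genes. Batf2, which encodes a partner of IRF1 in macrophages, had 0.618, 0.951, 1.03 and 1.11 CPM in the labelled knockdown libraries and 1.88, 8.81, 2.24 and 8.01 CPM in wildtype. The groups did not overlap, and wildtype replicates 2 and 4 were again the highest. Its log2 fold change of −2.49 had an edgeR adjusted p of 0.0845; it was the 1 gene of the list called by DESeq2, and edgeR called it without wildtype replicate 1 (adjusted p = 0.0181). Among the 5 libraries with hepatocyte transcripts it had −1.004 (edgeR adjusted p = 0.576). The corepressor gene Irf2bp2 had −0.29 (edgeR adjusted p = 0.170), Irf2bp1 −0.02 and Irf2bpl 0.23, and none of these passed.

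**Figure D4:**
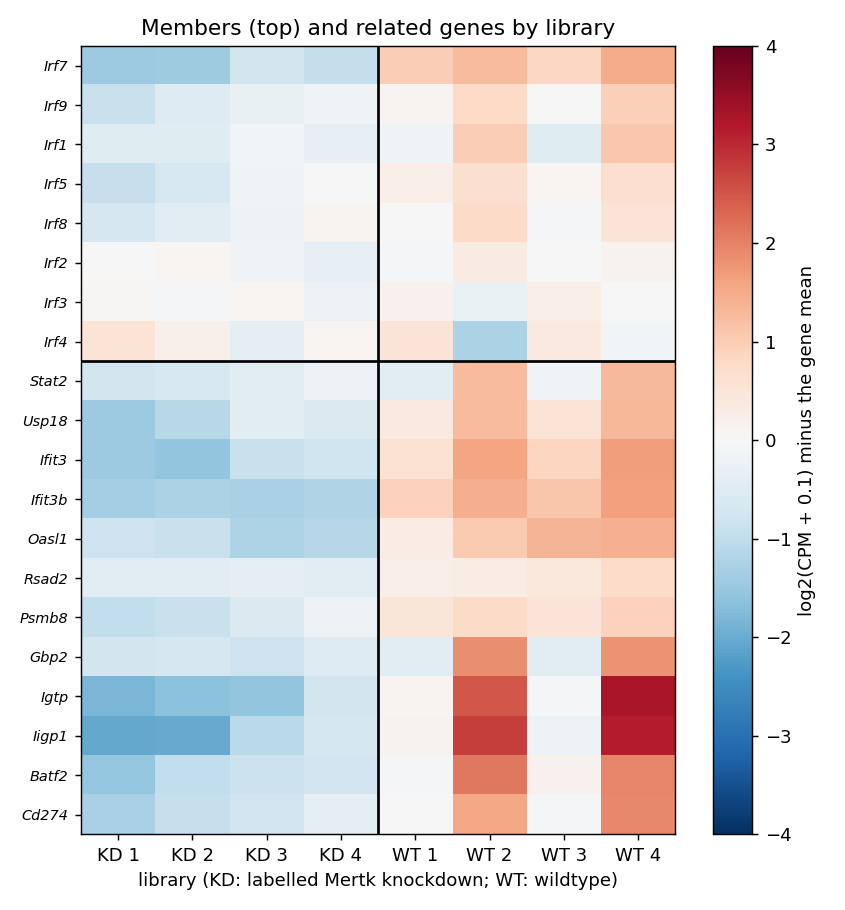
Log2(CPM + 0.1) of the 8 IRF genes (above the line) and of 12 related genes (below it), each minus its own mean over the 8 libraries (colour), by library; the related genes were picked after their values were seen. Wildtype replicates 2 and 4 are the 2 highest libraries for 16 of the 20 genes. All 4 wildtype libraries are above the gene mean for 8 of the 20, Irf7, Ifit3 and Ifit3b among them. The share over all tested genes was not computed for either count.

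Reads of neighbouring genes could reach a few of these rows, since the labels do not record whether the authors' counting used strand. Irf7 overlaps Phrf1 on the opposite strand by 45 bases, and Phrf1 had a log2 fold change of −0.07 (edgeR adjusted p = 0.844). Irf9 overlaps the end of Rnf31 on the same strand by 123 bases, with −0.34 for Rnf31 (edgeR adjusted p = 0.255). Irf3 overlaps Bcl2l12 by 1065 bases and Irf5 overlaps Tnpo3 by 1045 bases, both on opposite strands, with 0.04 and 0.10. Tnpo3 drew many more reads than Irf5, with 54.0 to 63.1 CPM in the labelled knockdown and 51.1 to 57.6 CPM in wildtype; how far its reads enter the Irf5 row was not tested. Irf1 overlaps the predicted gene Gm17334 by 3145 bases and Irf2 overlaps Gm45481 by 877 bases, both of low count.

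**Figure D5:**
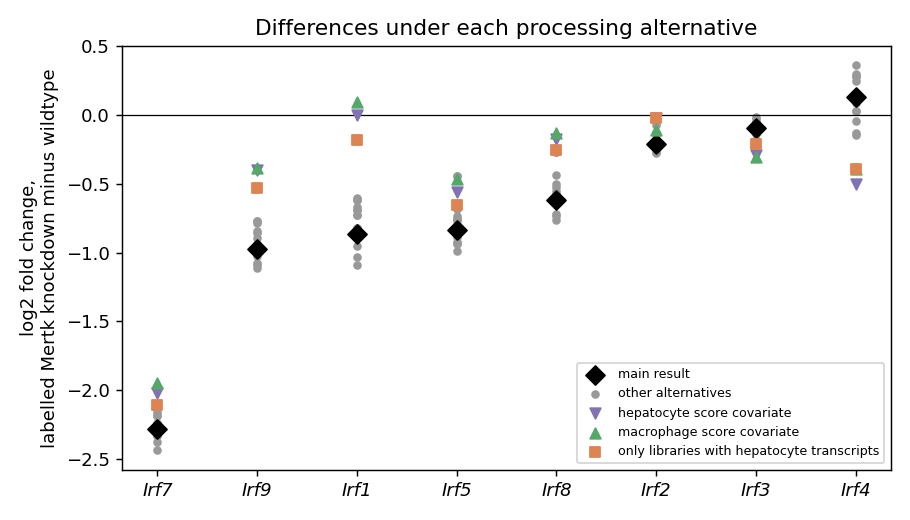
Log2 fold change (labelled knockdown minus wildtype, y axis) of each gene under the main analysis (diamond) and 23 alternatives; triangles are fits with a marker score as covariate and squares are fits to the 5 libraries with hepatocyte transcripts. Irf7 stays between −2.44 and −1.95, while Irf1 runs from −1.09 to 0.10.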

How the data were processed

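Heart poly(A) libraries were compared as 4 labelled Mertk knockdown against 4 wildtype. The authors deposited whole-number counts and FPKM per gene, per the file headers; the submitters' processing notes name cutadapt 1.9, HISAT2 2.2.1, StringTie 2.1.6, DESeq2, edgeR and build mm10 without role or order. No per-sample column or row was left unmatched. Counts were tested with edgeR 4.0.16 (quasi-likelihood, robust, TMM, filterByExpr, R 4.3.3), two-sided, Benjamini-Hochberg over all 17787 genes, called under 0.05, and CPM used TMM-scaled totals. SE is the log2 fold change over the square root of F. The edgeR script was tested on simulated data. Alternatives used DESeq2 1.42.0 and limma 3.58.1, other scalings and filters, FPKM with a pseudocount of 1 or 0.1, covariates and fewer libraries. All pairs of libraries within a group differed by far more than counting noise (chi-square over degrees of freedom 37.9 to 199), so none was counted as a duplicate.

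The genes and lists were chosen with earlier results of these data known. The named genes are the 8 members, Mertk, up to 4 called genes of each list (or the 2 of lowest p), the 3 closest profiles of members that were called or did not overlap, and overlapping genes; others were chosen after their values were seen. Some items are not reported here.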

Additional observations from a re-analysis of the deposited data

Results flagged for a closer look

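Among 33 named genes in both groups (66 groups), 2 held a library far from the other 3, by its gap over the range of the group; chance flags about 1 group in 20. Wildtype replicate 3 had 68.8 CPM of H2-Q4, against 81.9 to 83.9 CPM in the other wildtype libraries. Labelled knockdown replicate 2 had 0.106 CPM of the predicted gene Gm45481, which overlaps Irf2, against 0 in the other 3, a value of a few reads. None of the 8 IRF genes held such a library in either group.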

How the results depend on the processing

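Irf7 kept its direction and its call in all 23 alternatives. Irf9 and Irf5 passed in DESeq2 alone (log2 fold change −0.97 and −0.84), which made 3 members called there against 1, and Irf1, Irf2, Irf3, Irf4 and Irf8 passed in none. The sign turned for Irf1 with the macrophage covariate (0.10) and for Irf4 with the hepatocyte covariate (−0.50), the macrophage covariate (−0.39), the 5 libraries with hepatocyte transcripts (−0.39), the 6 low in atrial transcripts (−0.13), and without labelled knockdown replicate 1 (−0.04) or wildtype replicate 2 (−0.14), and Irf4 ran from −0.14 to 0.36 over the libraries left out; the cause was not tested.

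Over all genes, 66 were lower and 49 higher. These numbers were 328 and 255 in DESeq2, 43 and 27 with log2(FPKM + 1), 40 and 29 with log2(FPKM + 0.1), 13 and 8 with log2(FPKM + 1) and no filter, 11 and 8 with the hepatocyte covariate, 124 and 91 with the macrophage covariate, 23 and 19 with hepatocyte transcripts, and 27 and 8 low in atrial transcripts. Leaving out 1 library gave 29 to 100 lower and 15 to 165 higher, the most without wildtype replicate 1. With the replicate number as a block, 19 were lower and 5 higher, and Irf7 stayed called (edgeR adjusted p = 0.0152). The labels do not say whether the replicate numbers pair the libraries. Deviations of same-numbered libraries correlated at 0.0615, 6.3e-05, −0.00646 and 0.181, and 3 of 8 libraries correlated best with their own number. No clear pairing was seen, but so few values cannot show that it is absent.

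Of the lists, the called numbers over libraries left out were 4 to 16 (interferon-stimulated), 1 to 2 (IRF1 or IRF8 targets), 0 to 1 (receptors and STATs) and 0 to 1 (partners). With log2(FPKM + 1) they were 4, 1, 0 and 0. DESeq2 and the marker-based library sets (hepatocyte and atrial) were added for the lists after seeing the data. DESeq2 called 26, 18, 1 and 1, and Trim21 in the list of kinases, adaptors and regulators. The atrial set called 2, 2, 0 and 0. The median of the interferon-stimulated list moved to −0.46 in the hepatocyte set, that of IRF1 or IRF8 targets to −0.60 and that of IRF2 targets to −0.06; that of receptors and STATs turned to −0.025 there and to −0.0092 without labelled knockdown replicate 2, in a range of −0.0092 to 0.093. The interval of Irf4 is the widest of the 8 genes, and what sets its width was not tested.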
